A study of Homo sapiens with 56 samples.

Results

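Nuclear receptors are transcription factors that bind DNA and, in most cases, are switched by a small lipid-soluble ligand such as a steroid, retinoic acid, thyroid hormone, vitamin D or a fatty acid. Steroid receptors mostly act as homodimers, while retinoid, vitamin D, thyroid hormone and lipid-sensing receptors pair with a retinoid X receptor (RXR). The orphan members have no accepted ligand or act without one. In the ovary, oestrogen, progesterone and glucocorticoid signalling are part of normal physiology, and oestrogen receptor alpha is used as a marker in ovarian carcinoma.

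The expression of 45 listed nuclear receptor genes was examined in 28 human ovarian cancer cell lines, each measured on 2 Affymetrix Human Gene 1.0 ST arrays. A gene was represented by a probe set annotated to that gene alone, and the brightest on average was taken where there were several, which gave 39 of the 45 genes among 18377 genes in all. RARA, NR1H2, NR1H4, NR1I2, NR2F2 and NR0B1 were not analysed here. The cell lines were A2780, CAOV3, CH1, COLO720E, DOV13, EFO21, FUOV1, HEY, HEYC2, JHOS2, JHOS3, JHOS4, OAW28, OAW42, OV17R, OV56, OV7, OVCA420, OVCA432, OVCA433, OVCAR2, OVCAR3, OVCAR5, PEO1, SKOV3, TOV112D, TYKNU and UWB1.289. No treatment was compared, and 10 grew in DMEM, 9 in RPMI, 7 in DMEM/F12 and 2 in other mixtures. These were TOV112D in MCDB105/M199 and UWB1.289 in RPMI/MEGM, each the only line in its mixture. The media of OV17R, OV56 and OV7 also held hydrocortisone at 0.4 or 0.5 µg/ml, insulin at 10 µg/ml and 5% serum. Insulin was also given to OVCAR2, OVCAR3 and OVCAR5 at 10 µg/ml and to OAW28 and OAW42 at 0.7 µg/ml. Serum was at 20% for EFO21 and OVCAR3, at 3% for UWB1.289 and at 10% for the other lines. The labels leave unsaid whether duplicate arrays are from different cultures, so the p-values rest on a spread between arrays that may be technical alone.

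All values are log2 intensities after robust multi-array averaging (RMA). Since the brightness of a probe set depends on its sequence, levels were compared between cell lines within a gene and never between genes. Of 7 ovarian and epithelial markers, PAX8, WT1, KRT7, KRT8 and KRT18 were above background in all 28 lines, EPCAM in 25 and MUC16 in 14. Of 4 leukocyte markers, PTPRC and CD3E were above background in no line, ITGAM in 1 and CD14 in 26. The endothelial markers PECAM1, CDH5 and KDR were highest in TYKNU. Of 5 fibroblast markers, COL1A1 and COL1A2 were above background in all 28 lines, COL3A1 in 27, LUM in 3 and DCN in 2. The arrays HEYC2 replicate 1, OV56 replicate 2 and OVCA420 replicate 1 stood apart, with a correlation of 0.731 to 0.865 with their duplicates against 0.983 to 0.997 in the other lines, and with a higher background level (6.17 to 6.38, against 5.10 to 5.67 on the other arrays). Where a result rests on 1 of these arrays, both arrays of the line are given.

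To ask which receptors were expressed at all, the 95th percentile of 339 olfactory receptor genes on each array was taken as its background level (median 5.35). A receptor was called detected in a line when both arrays were above that level. In this way 14 of the 39 receptors were detected in every line, 20 in some lines and 5 in none, whereas of all genes 41.9% were detected in every line, 42.2% in some and 15.96% in none. The first count was 9 with the 99th percentile, 4 with the median of each array as the level, and 17 without the 3 arrays that stood apart.

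**Figure D1:**
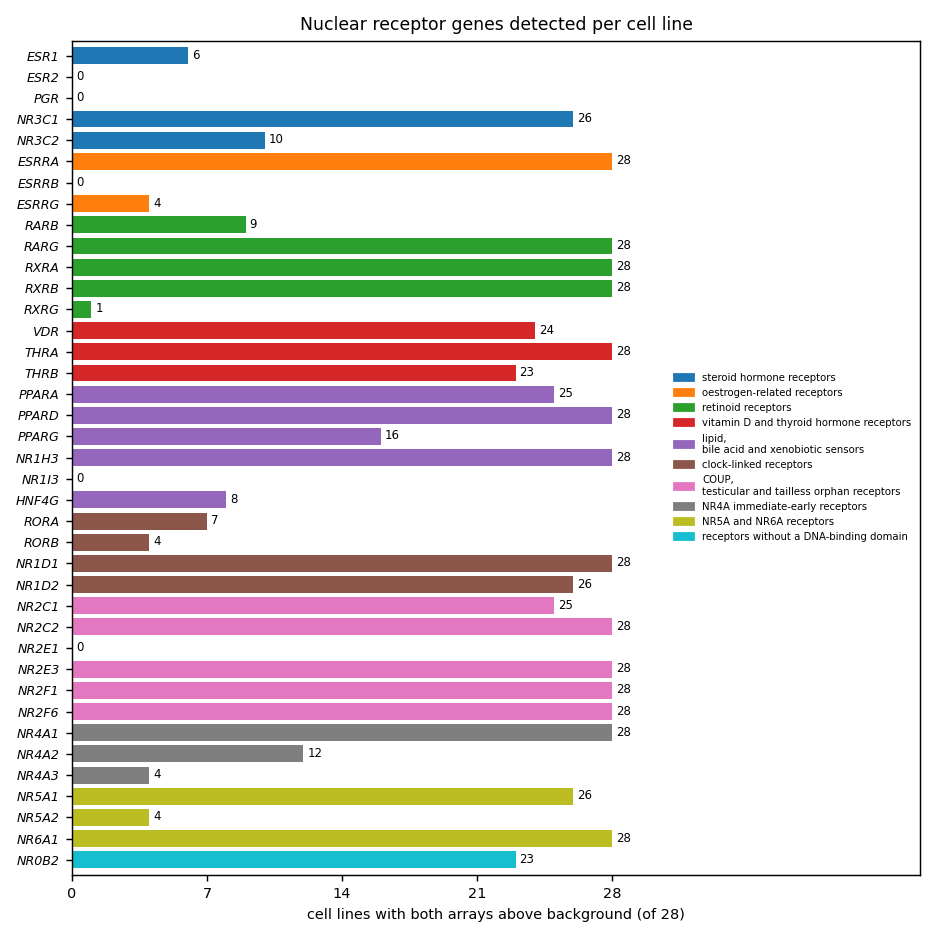
Number of cell lines (x axis, of 28) in which each nuclear receptor gene (y axis) was above background on both arrays, coloured by role. Bars at 28 mark the 14 genes detected in every line, and ESR2, PGR, ESRRB, NR1I3 and NR2E1 stand at 0.

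The receptors found in every line comprised the RXR partners RXRA and RXRB, the retinoic acid receptor RARG, the thyroid hormone receptor THRA, the fatty acid sensor PPARD, the oxysterol receptor NR1H3 (LXR alpha), the oestrogen-related receptor ESRRA, a regulator of mitochondrial genes, the heme-binding clock repressor NR1D1 (REV-ERB alpha), the immediate-early gene NR4A1, and the orphan receptors NR2C2, NR2E3, NR2F1, NR2F6 and NR6A1. Line means of ESRRA ran from 7.84 in SKOV3 to 9.19 in HEYC2, where the arrays read 9.85 and 8.54, and those of THRA from 6.56 in CH1 to 8.11 in SKOV3. NR2E3, a photoreceptor gene, was detected in every line but close to background, with a median of 5.71. Likewise NR5A1, the steroidogenic factor SF1, was detected in 26 lines with a median of 5.69 and did not vary between lines by the test below (adjusted p = 0.733).

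Among steroid hormone receptors the glucocorticoid receptor gene NR3C1 was detected in 26 lines, the mineralocorticoid receptor gene NR3C2 in 10 and the oestrogen receptor alpha gene ESR1 in 6, while ESR2, oestrogen receptor beta, and PGR, the progesterone receptor, were detected in none. The highest line mean of PGR was in OVCA432, with arrays at 5.33 and 5.32 and a median over lines of 4.17. The first of these arrays was above its background level of 5.19 and the second was below its level of 5.37. OVCA432 was also the line with the second highest ESR1. Per line, between 15 receptors (OVCA420) and 28 receptors (JHOS2 and JHOS3) were detected. The lowest counts, 15, 17 and 19, belonged to OVCA420, HEYC2 and OV56, the lines with an array of high background.

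The next question was which receptors differed between lines. By limma's moderated F test over 28 lines, 35 of the 39 receptors had an adjusted p under 0.05 (89.7%, against 65.7% of all genes). Of these, 20 also spanned at least 2 log2 units between the lowest and the highest line, against a share of 36.1% of all genes, and the median span was 2.05 for the receptors and 1.72 for all genes. The widest spans belonged to NR3C2 (5.49), NR3C1 (4.85), RARB (4.81), NR5A2 (3.99), PPARG (3.94) and NR4A2 (3.49). The 4 receptors that did not pass the F test were PGR, ESRRB, NR1I3 and NR5A1, with spans between 0.55 and 1.39. For PGR the OVCA420 arrays read 5.55 and 3.92, the first being an array that stood apart. Compared with the other lines, PGR was nonetheless higher in OVCA432, by 1.10 ± 0.23 (SE, adjusted p = 0.000667 by limma's line contrast). The same 20 receptors were called without the 3 arrays that stood apart.

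By role, 3 of 5 steroid hormone receptors varied by this rule, 3 of 5 retinoid receptors, 3 of 4 clock-linked receptors, 3 of 6 COUP, testicular and tailless orphan receptors, and 2 of 3 NR5A and NR6A receptors. Of the oestrogen-related, the vitamin D and thyroid hormone, and the NR4A receptors, 1 of 3 each varied, namely ESRRG, THRB and NR4A2. Of the lipid, bile acid and xenobiotic sensors, 2 of 6 varied, PPARG and HNF4G. NR0B2 (SHP), the one measured receptor without a DNA-binding domain, spanned 2.18.

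**Figure D2:**
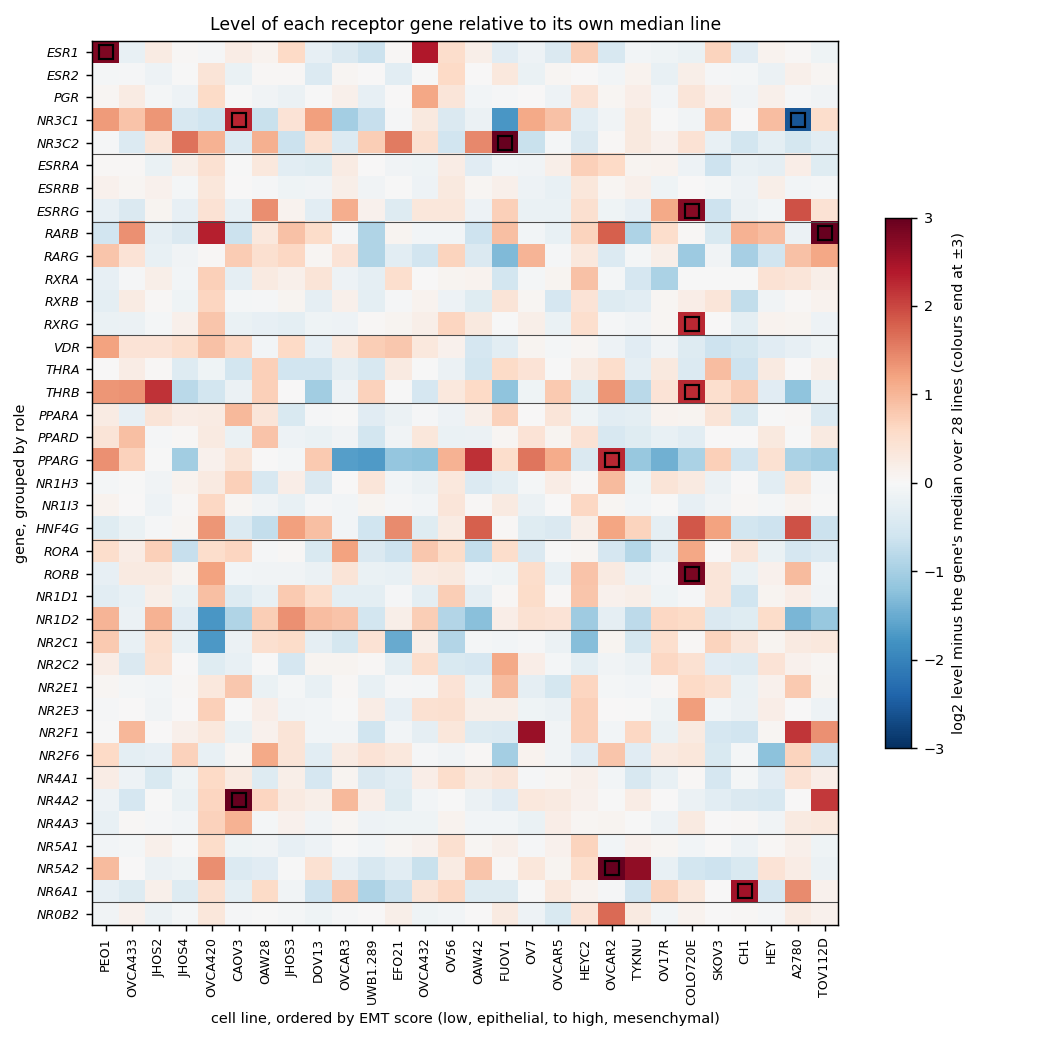
Colour gives the log2 level of each receptor gene (rows, grouped by role) in each cell line (columns, ordered by EMT score) minus that gene's median over 28 lines, with colours ending at ±3. Black squares mark the 13 calls of a gene high or low in a single line, of which 4 fall in COLO720E. COLO720E was also the line with the largest share of all genes called high (0.653%).

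To find line-specific receptors, each line was compared with the mean of the other 27 lines. A receptor was called high in a line when the difference was at least 2 log2 units with an adjusted p under 0.05 over all genes and lines, and both arrays lay above all 54 arrays of other lines. On this rule 12 of 39 receptors were high in 1 line, against 8.73% of all genes, and 1 was low, against 2.55% of all genes. The 12 were ESR1, NR3C1, NR3C2, ESRRG, RARB, RXRG, THRB, PPARG, RORB, NR4A2, NR5A2 and NR6A1. They fell in few lines, with 4 in COLO720E, 2 each in CAOV3 and OVCAR2, and 1 each in PEO1, FUOV1, TOV112D and CH1. Of all genes, 0.653% were high in COLO720E, the largest share of any line. The share was 0.435% in CAOV3, 0.49% in OVCAR2, 0.501% in PEO1, 0.533% in FUOV1, 0.381% in TOV112D and 0.386% in CH1. For ESR1, NR3C2, ESRRG, RARB, RXRG, RORB, NR4A2 and NR5A2 most other lines were not above background, so these differences are lower limits.

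**Figure D3:**
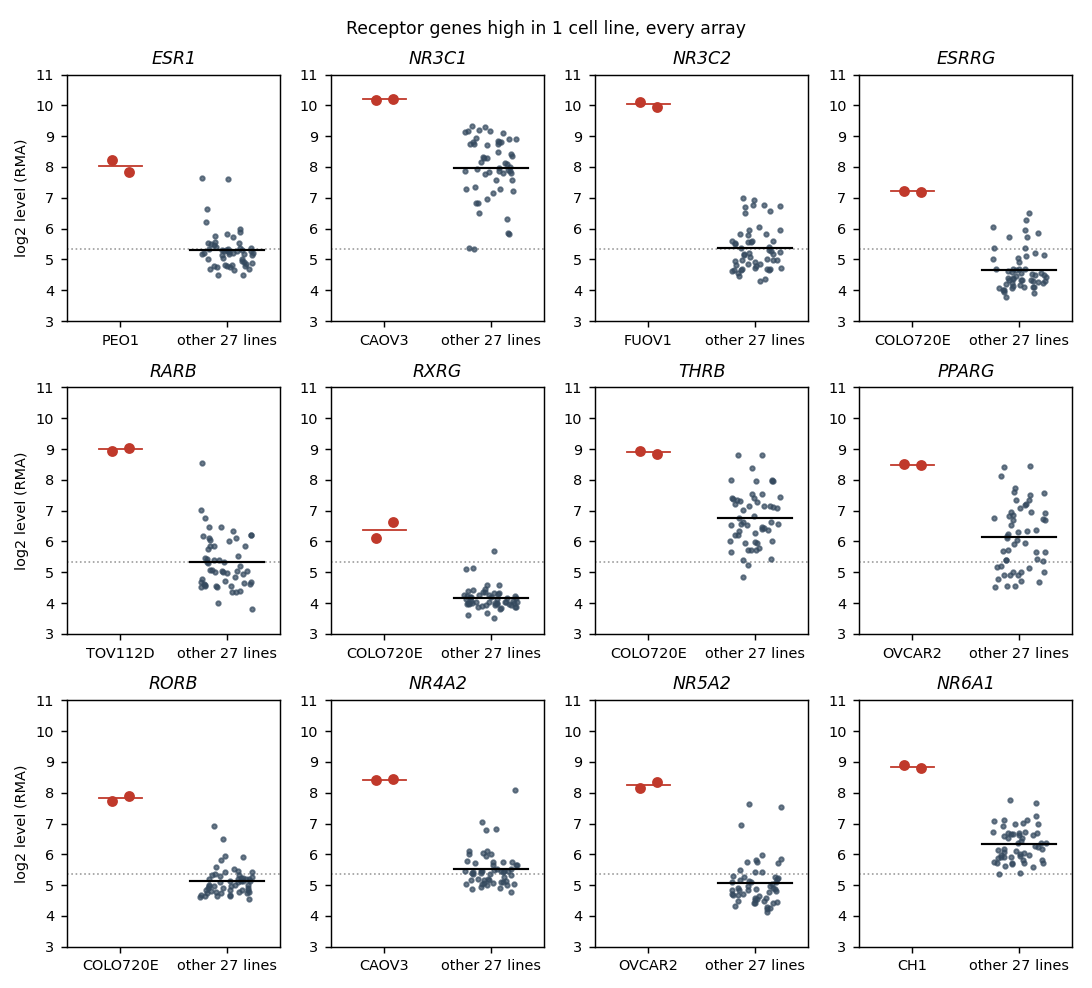
Log2 level (y axis) of the 12 receptor genes that were high in 1 line, with both arrays and the mean of that line in red on the left and the 54 arrays of the other 27 lines with the mean of those lines in black on the right. The dotted line is the median background level of 5.35, and NR3C2 shows the widest gap, with 10.12 and 9.95 in FUOV1 against at most 6.98 elsewhere.

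The largest single difference was that of NR3C2, which encodes the mineralocorticoid receptor, the receptor of aldosterone. It measured 10.12 and 9.95 on the arrays of FUOV1, against 4.29 to 6.98 with a median of 5.20 on the arrays of the other lines. FUOV1 was thus separated from every other line by 3.20 log2 units, JHOS4 being next with a mean of 6.84. The difference was 4.67 ± 0.19 (SE, n = 2 arrays, adjusted p = 1.48e-18 by limma). In the same line NR3C1 measured 5.84 and 6.51, the second lowest mean of the 28 lines, without meeting the rule for a low call. PPARGC1A, a coactivator of several nuclear receptors, was also highest in FUOV1, at 8.70 and 8.15 against a mean of 5.07 in the other lines (difference 3.36 ± 0.25, adjusted p = 4.81e-12 by limma). PPARGC1A was detected in only 4 of the other lines, so this difference is a lower limit.

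The glucocorticoid receptor gene NR3C1 was the only receptor called both high in a line and low in another. In CAOV3 it measured 10.19 and 10.21, against 5.34 to 9.35 with a median of 8.05 elsewhere, a difference of 2.24 ± 0.39 (SE, adjusted p = 5.295e-05 by limma). In A2780 it measured 5.34 and 5.37, against 5.84 to 10.21 with a median of 8.15 elsewhere, a difference of -2.79 ± 0.39 (adjusted p = 1.75e-06 by limma). NR3C1 was not above background in A2780, so this difference is a lower limit. Below CAOV3 came JHOS2 at 9.25, PEO1 at 9.20 and DOV13 at 9.15, and above A2780 came FUOV1 at 6.17 and OVCAR3 at 6.90.

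Since many genes are known to respond to the glucocorticoid receptor, 11 measured glucocorticoid targets were compared in both lines. In CAOV3, 3 of 11 were higher and 2 lower than in the other lines at an adjusted p under 0.05 (11.9% and 8.0% of all genes). Here SGK1, a kinase, was at 9.42 and 9.46 against a mean of 6.58 elsewhere, and the metallothionein MT2A at 13.90 and 13.91 against a mean of 12.41. However, TSC22D3 (GILZ), a classical target, was at 6.61 and 6.38 in CAOV3 against a mean of 7.48 elsewhere, a difference of -0.98 ± 0.14 (adjusted p = 1.20e-06 by limma). When the 3 arrays that stood apart were left out, 4 targets were higher and 4 lower in CAOV3. In A2780, SGK1, MT2A and DUSP1 were lower and TSC22D3 and PER1 higher (8.88% and 9.27% of all genes were higher and lower). TSC22D3 there was at 8.49 and 8.50 against a mean of 7.40. Over all 28 lines, the correlation of NR3C1 with its 11 targets had a median r of -0.14, beside -0.06 over all genes. Without the 3 arrays that stood apart these medians were -0.07 and -0.04. In FUOV1, with its high NR3C2, 3 of 11 of the same targets were higher (TSC22D3, PER1 and CRISPLD2) and 3 lower (10.2% and 14.2% of all genes). With those 3 arrays left out, 5 were higher and 3 lower there, again with no share of all genes given for that setting. CRISPLD2 was not above background in FUOV1.

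ESR1 was high in PEO1, with arrays at 8.24 and 7.83 against 4.48 to 7.65 with a median of 5.23 on the other arrays. The difference was 2.72 ± 0.23 (SE, adjusted p = 4.43e-11 by limma). OVCA432 followed with 7.65 and 7.62, and after it HEYC2 with 6.64 and 5.32, so that PEO1 and OVCA432 stood above the remaining 26 lines. ESR1 has a second probe set, and with the mean of both the difference in PEO1 was 1.37 and no longer met the rule. The 9 measured oestrogen targets outside the receptor family did not follow a common direction: in PEO1, 2 were higher (MYB and STC2) and 2 lower (CA12 and XBP1), against 9.78% and 8.2% of all genes. In OVCA432 MYB and XBP1 were higher and CA12 and STC2 lower, against 9.78% and 8.28% of all genes. PGR, also a listed oestrogen target, is a receptor and so not among the 9. It was highest in OVCA432 (difference 1.10 ± 0.23, adjusted p = 0.000667 by limma), while its mean in PEO1 was 4.22. Over 28 lines ESR1 and PGR had r = 0.49, which fell to 0.27 without their highest lines. XBP1 was at 11.29 and 11.14 in OVCA432, against a mean of 9.99 in the other lines. CA12, a carbonic anhydrase, ranged from 5.47 in OVCA433 to 10.64 in FUOV1, and IGFBP4 from 6.67 in OAW42 to 11.69 in OV7.

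ESRRG, an oestrogen-related receptor without a known natural ligand, was high in COLO720E at 7.23 and 7.196 against 3.79 to 6.497 elsewhere (median 4.48). The difference was 2.55 ± 0.21 (SE, adjusted p = 2.63e-11 by limma). A2780 came next with a mean of 6.38, and 4 lines in all were above background. NR3C1 and ESRRG ran in opposite directions over the 28 lines, with r = -0.58 and, without their highest lines CAOV3 and COLO720E, r = -0.72.

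COLO720E was also the line in which the brain and retina receptor RORB, the retinoid partner RXRG and the thyroid hormone receptor THRB were called high. RORB measured 7.73 and 7.90 there, against 4.54 to 6.93 with a median of 5.05 elsewhere (difference 2.68 ± 0.24, adjusted p = 1.84e-10 by limma). The array with 6.93 was OVCA420 replicate 1, whose duplicate read 5.47. RXRG measured 6.12 and 6.63 in COLO720E, against 3.52 to 5.70 with a median of 4.06 elsewhere, and it was detected in no other line. Its difference was 2.22 ± 0.24 (adjusted p = 9.76e-09 by limma) and was 1.96, under the minimum, without COLO720E replicate 2. THRB measured 8.94 and 8.84, against 4.86 to 8.81 elsewhere (median 6.63), with a difference of 2.12 ± 0.30 (adjusted p = 2.11e-06 by limma). Here JHOS2, at 8.81 and 8.80, lay directly below, so THRB was high in a pair of lines rather than in COLO720E alone. NR2E3 had its highest level in COLO720E too, at 7.15 and 6.76, a smaller difference that did not reach 2 log2 units.

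Genes linked to these receptors moved in both directions in COLO720E. Of 7 retinoic acid targets outside the family, CRABP2 and STRA6 were higher and DHRS3 and TGM2 lower, against 11.8% and 10.8% of all genes. TGM2, a transglutaminase, was at 7.38 and 7.10 in COLO720E against a mean of 10.17 in the other lines. Of 11 clock genes, only some of which RORs activate and REV-ERBs repress directly, DBP was higher and NPAS2 and PER3 lower. Without the 3 arrays that stood apart, 1 clock gene was higher and 4 were lower there, with no share of all genes given for that setting.

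RARB, the retinoic acid receptor beta, was high in TOV112D, at 8.94 and 9.05 against 3.82 to 8.53 elsewhere (median 5.08). The difference was 3.67 ± 0.27 (SE, adjusted p = 2.27e-12 by limma). TOV112D was the only line in its medium, so line and medium cannot be told apart. The value of 8.53 came from OVCA420 replicate 2, whose duplicate, one of the arrays that stood apart, read 6.34. RARB is itself a target of retinoic acid, through a response element of repeated short motifs in its proximal promoter. The 250 bases before a RARB start (GRCh38.p14, RefSeq, chr3:25428013-25428262, plus strand) are shown because they hold that element, in capitals, starting 52 bases before the start site:

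RARB promoter: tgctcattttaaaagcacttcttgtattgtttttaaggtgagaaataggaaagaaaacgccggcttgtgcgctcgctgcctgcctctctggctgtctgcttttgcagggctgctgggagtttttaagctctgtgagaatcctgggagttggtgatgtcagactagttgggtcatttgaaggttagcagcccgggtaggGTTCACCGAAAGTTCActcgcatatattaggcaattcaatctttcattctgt

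The letters searched on both strands were GTTCA, then 5 bases of any kind, then AGTTCA. They are spelled as in the RARB element itself, so a match in RARB was given in advance. They occurred in 11 of 35116 windows of this length before RefSeq gene starts (0.0313%), and in 1 of 84 windows of the receptors, which is the one shown. A match is a description of the letters and not a measured site. The core motif AGGTCA, which many nuclear receptors bind, by contrast was in 12.1% of all windows and in 12 of the 84.

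Other retinoic acid targets did not share the RARB pattern in TOV112D. Of 7 measured outside the family, CYP26A1, which degrades retinoic acid, was higher at 6.16 and 6.17 against a mean of 5.44 elsewhere (difference 0.73 ± 0.23, adjusted p = 0.0213 by limma). DHRS3, TGM2 and STRA6 were lower, and the share of all genes was 9.23% higher and 9.59% lower. TGM2 was at 7.14 and 7.07 in TOV112D, against a mean of 10.17 elsewhere. Among all lines, TGM2 ranged from 5.66 in OAW28 to 13.21 in OVCA433 and DHRS3, a retinal reductase, from 5.35 in SKOV3 to 10.60 in JHOS3. RARG, the other measured retinoic acid receptor, was also highest in TOV112D, at 9.02 and 8.90, followed by OV7 at 8.82.

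PPARG, the master regulator of fat cell differentiation, was highest in OVCAR2, with arrays at 8.51 and 8.48 against 4.51 to 8.44 elsewhere (median 6.15). The difference was 2.34 ± 0.19 (SE, adjusted p = 4.90e-11 by limma). OAW42, at 8.44 and 8.43, lay directly below, with a difference of 2.28 ± 0.19 (adjusted p = 8.56e-11 by limma), so that the means of these 2 lines lay 0.06 apart. The gene was detected in 16 lines and was lowest in UWB1.289 at 4.55. The fibroblast marker LUM was highest in OVCAR2 too, at 10.37, one of 5 markers of that type, and its part in these values was not tested. The other fibroblast markers were highest elsewhere, COL1A1 in SKOV3, COL1A2 in A2780, COL3A1 in TOV112D and DCN in OV7. Both OVCAR2 and OAW42 were kept with insulin, and so were 6 other lines, and the part of insulin was not tested.

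The 8 measured PPAR targets differed between these 2 lines. In OVCAR2, 5 of 8 were higher and 0 lower than in the other lines at an adjusted p under 0.05 by limma, against 9.83% and 10.0% of all genes. FABP4, a fatty acid carrier, was at 9.61 and 9.71 against a mean of 3.31 (difference 6.35 ± 0.15, adjusted p = 1.38e-24 by limma), and DOV13 was next at 6.52. FABP4 was detected in 1 of the other lines, so its difference is a lower limit. PLIN2, which coats lipid droplets, was at 10.24 and 10.20 in OVCAR2 against a mean of 6.38. PDK4, CPT1A and ACADVL, genes of fatty acid use, were the other 3. In OAW42, however, 2 of 8 were higher and 2 lower, against 7.82% and 9.38% of all genes. There PDK4 was at 8.87 and 8.83 against a mean of 5.96, while PLIN2 was at 4.94 and 4.78 against a mean of 6.58. PLIN2 was not above background in OAW42. The other 2 calls, CD36 (higher) and FABP4 (lower), were below background in OAW42 and in nearly all other lines, and FABP4 at 2.86 and 3.17 lay near its median over lines of 3.05. Over all 28 lines 7 of the 8 targets had a positive r with PPARG, with a median of 0.20 beside 0.01 over all genes, and PDK4 had the highest at 0.54.

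OVCAR2 also had the highest NR5A2, NR0B2 and NR1H3. NR5A2 (LRH-1), a receptor of liver, pancreas and ovary, measured 8.16 and 8.36 there, against 4.14 to 7.64 with a median of 4.89 elsewhere. The difference was 3.20 ± 0.18 (SE, adjusted p = 3.48e-15 by limma). TYKNU followed at 7.54 and 7.64, and 4 lines in all were above background. TYKNU also had the highest levels of 3 of the 4 endothelial markers (PECAM1 9.79, CDH5 9.28 and KDR 8.06), and their part in the NR5A2 level was not tested. NR0B2, which NR5A2 is known to activate in liver, measured 7.05 and 7.61 in OVCAR2, with HEYC2 next at 6.32 and 5.75, and NR1H3 measured 7.57 and 7.50. NR5A2 and NR0B2 correlated with r = 0.69 over 28 lines, which fell to 0.32 without their common highest line.

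In the list of bile acid and xenobiotic targets, OVCAR2 stood out for CYP2B6, a xenobiotic-metabolising cytochrome. It was at 9.14 and 9.57 against a mean of 4.35 (difference 5.00 ± 0.22, adjusted p = 1.35e-17 by limma). Of the bile acid and xenobiotic sensors, NR1H4 and NR1I2 were not analysed here and NR1I3 was detected in no line. CYP2B6 was detected in 2 of the other lines, so this is a lower limit. SLC51B, a bile acid transporter, and the efflux pump ABCB1 were higher as well, so 3 of 7 bile acid and xenobiotic targets were higher and 0 lower. Of all genes, 9.83% were higher and 10.0% lower in OVCAR2. None of 10 steroidogenic genes was called in OVCAR2, although 2 were higher without the 3 arrays that stood apart. The share of all genes in that setting is not given here. NRIP1 (RIP140), a corepressor of many nuclear receptors, was low in OVCAR2, where it was not above background, with a line mean of 2.88 against a mean of 8.50 elsewhere (difference -5.62 ± 0.62, adjusted p = 2.00e-08 by limma). It was highest in JHOS3, at 10.45 and 10.40.

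The NR4A receptors are immediate-early genes induced within minutes by many stimuli. NR4A2 (NURR1) was high in CAOV3, at 8.41 and 8.43 against 4.78 to 8.09 elsewhere (median 5.44), with a difference of 2.89 ± 0.25 (SE, adjusted p = 1.30e-10 by limma). The value of 8.09 came from TOV112D replicate 2, whose duplicate read 7.03. NR4A3 was highest in CAOV3 too, at 6.17 and 6.24, a level near background, and over 28 lines NR4A2 and NR4A3 had r = 0.71 (0.42 without CAOV3). NR4A1 was detected in every line and spanned only 1.11. Since members of this group are cyclic AMP-responsive, the 250 bases before an NR4A3 start (GRCh38.p14, RefSeq, chr9:99821635-99821884, plus strand) are shown because their core motif TGACG, in capitals on either strand, is the one bound by cyclic AMP-responsive factors:

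NR4A3 promoter: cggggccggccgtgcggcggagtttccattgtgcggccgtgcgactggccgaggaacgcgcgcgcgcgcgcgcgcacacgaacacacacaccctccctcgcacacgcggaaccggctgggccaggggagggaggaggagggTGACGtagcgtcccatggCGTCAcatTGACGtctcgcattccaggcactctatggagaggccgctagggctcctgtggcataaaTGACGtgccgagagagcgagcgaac

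This window held 4 matches, the first 109 and the last 25 bases before the start. TGACG is common, being found in 21.2% of all 35116 windows and in 15 of the 84 windows of receptors, so its presence alone does not set NR4A3 apart. NR4A1 had no match to TGACG in its windows, and no promoter sequence of NR4A2 was used here.

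NR6A1 (germ cell nuclear factor), which represses pluripotency genes in early embryos, was high in CH1, at 8.88 and 8.80 against 5.36 to 7.78 elsewhere (median 6.25). The difference was 2.51 ± 0.18 (SE, adjusted p = 9.17e-13 by limma). A2780 followed at 7.67 and 7.78. CH1 was also the line in which CYP26A1 was called high, with a mean of 7.50 against 5.39 in the other lines.

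Several further receptors were far above most lines in a few of them without meeting the rule for a single line. NR2F1 (COUP-TFI) measured 10.27 and 9.05 in OV7, a difference of 2.45 ± 0.25 (SE, adjusted p = 2.76e-09 by limma), but the arrays of A2780, at 9.16 and 9.24, lay between them. HNF4G was highest on OVCA420 replicate 2, at 7.23, while the duplicate that stood apart read 4.64. Without the 3 arrays that stood apart, HNF4G was called high in OVCA420 with a difference of 2.33 ± 0.23 (adjusted p = 8.36e-11 by limma). That call rests on 1 array, which is assumed to vary like the arrays of the other lines. It was the only line-high call gained in that setting, and the other 12 were kept. NR2F6, an orphan receptor detected in every line, ran from 7.91 in HEY to 10.28 in OAW28.

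The clock-linked receptors NR1D2, RORA and RORB varied and NR1D1 did not by the same rule. NR1D2 (REV-ERB beta) was lowest in OVCA420, at a mean of 6.43, and highest in JHOS3 at 9.55. The low mean rested on the array of OVCA420 that stood apart, which read 4.58 while its duplicate read 8.28. RORA ran from 4.24 in TYKNU to 6.29 in OVCAR3 and was detected in 7 lines. Of 11 clock genes measured, 5 varied by the same rule as the receptors, NPAS2 the most, at 10.34 in OVCAR5 and 6.33 in FUOV1, followed by PER3, at 8.58 in JHOS3 and 4.73 in OVCAR2.

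Of the other pathway lists, 6 of 10 oestrogen targets, 6 of 11 glucocorticoid targets, 2 of 6 vitamin D targets, 6 of 8 retinoic acid targets, 6 of 8 PPAR targets, 5 of 7 LXR targets, 4 of 8 bile acid and xenobiotic targets, 1 of 10 steroidogenic genes and 6 of 11 coactivators and corepressors varied by this rule, against 36.1% of all genes. The LXR targets MYLIP and ABCA1 spanned 3.80 and 3.36. MYLIP, a ubiquitin ligase of the LDL receptor, was highest in OAW42 at 10.02 and lowest in A2780 at 6.23, and ABCA1, a cholesterol exporter, was highest in DOV13 at 8.23 and lowest in CAOV3 at 4.87. Over 28 lines 5 of the 7 LXR targets had a positive r with NR1H3, with a median of 0.28 beside 0.04 over all genes. Among steroidogenic genes CYP11A1, which makes pregnenolone from cholesterol, was high in CAOV3 with a mean of 7.06 and was detected in 1 other line, and CYP19A1 (aromatase) stayed between 3.67 and 5.16.

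To see whether receptors followed the epithelial–mesenchymal transition (EMT), each gene was related to an EMT score over the 28 lines. The score was rebuilt from 184 epithelial and 200 mesenchymal signature genes, none of them a nuclear receptor, and is higher in more mesenchymal lines. In some lines the 2 arrays gave scores of opposite sign. These were FUOV1 (0.38 and -0.33), OV7 (0.52 and -0.12), OAW42 (0.18 and -0.15), OV56 (0.12 and -0.30) and HEYC2 (-0.21 and 0.70). VDR, the vitamin D receptor, was the only one of 39 receptors called by this test, being lower in more mesenchymal lines (adjusted p under 0.05, 0.653% of all genes), and 0 were higher (0.125% of all genes). At an unadjusted p under 0.05 VDR was again the only one. Its rho was -0.769 with a jackknife SE of 0.0678 (n = 28 lines, permutation p = 1e-05, the smallest that 100000 permutations can give, adjusted p = 0.0102). Pearson's r was -0.767 (permutation p = 1e-05, adjusted p = 0.00681), and -0.741 without TOV112D and PEO1, the lines farthest from the median score.

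**Figure D4:**
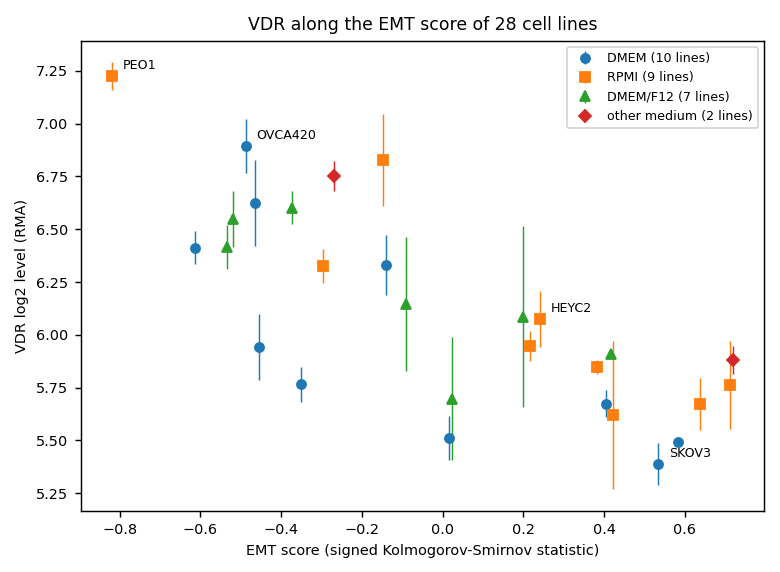
VDR log2 level (y axis) against EMT score (x axis) in 28 cell lines, with points at the mean of 2 arrays, vertical bars from the lower to the higher array and symbols for the base medium. PEO1 lies highest at 7.23 and SKOV3 lowest at 5.39, and rho was -0.769 over all lines.

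VDR measured 7.29 and 7.16 in PEO1, the most epithelial line by the score, and 5.49 and 5.29 in SKOV3, where it was lowest. Between these it spanned 1.84 and was above background in 24 lines. Within base media the relation was the same in sign, with rho = -0.903 in 10 DMEM lines, -0.900 in 9 RPMI lines and -0.750 in 7 DMEM/F12 lines. Without the 3 arrays that stood apart rho was -0.713 (adjusted p = 0.0123, permutation). In OV7 the arrays disagreed on VDR, at 5.66 and 6.51, and on the score, at 0.52 and -0.12. Of the other receptors NR1D2 had the lowest rho at -0.334 (adjusted p = 0.587, permutation) and NR0B2 the highest at 0.3005 (adjusted p = 0.658, permutation), and the median over receptors was -0.0274 beside 0.012 over all genes. The slope along the score was not called different between DMEM, RPMI and DMEM/F12 for any receptor by limma's interaction test, and it was for 1 of all genes (0.00544%). At an unadjusted p under 0.05 RXRA was the only receptor.

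None of 6 vitamin D targets passed the test along the score. CYP24A1, which degrades the active hormone and is induced by VDR, was at 10.50 and 10.16 in PEO1 against a mean of 5.96 elsewhere, a difference of 4.37 ± 0.25 (SE, adjusted p = 5.62e-15 by limma), and it was the only one of the 6 that was higher there (9.78% of all genes). Without the 3 arrays that stood apart there were 2, with no share of all genes given for that setting. CYP24A1 was detected in 9 of the other lines, so its difference is a lower limit. However, CYP24A1 was highest in CAOV3, at 11.79 and 11.85, followed by OVCA433 at 10.79 and EFO21 at 10.43, and lowest in UWB1.289 at 3.85. Over 28 lines VDR and CYP24A1 had r = 0.62, the highest among the 6 targets, whose median was 0.15 beside 0.02 over all genes. CD14, with the second widest span in this list, was highest in CAOV3 as well, at 7.90.

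Finally, since 3 lines were kept with hydrocortisone, a ligand of the glucocorticoid receptor, they were compared with the other 25 lines. Medium and line cannot be told apart in this comparison, and insulin and serum differed as well. None of the 39 receptors was called by limma (5 of all genes, 0.0272%), and 0 had an unadjusted p under 0.05. NR3C1 itself averaged 8.15 in the 3 lines and 8.03 in the others (difference 0.12 ± 0.60, SE). Of 11 glucocorticoid targets, ZBTB16 was called, and 10 were higher on average in the 3 lines, with a median difference of 0.62 beside 0.02 over all genes. UWB1.289, grown in RPMI/MEGM, was counted among the 25 lines, and the additives of MEGM are not given here. Without UWB1.289, 11 of the 11 targets were higher, with a median difference of 0.62, and 1 was called.

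**Figure D5:**
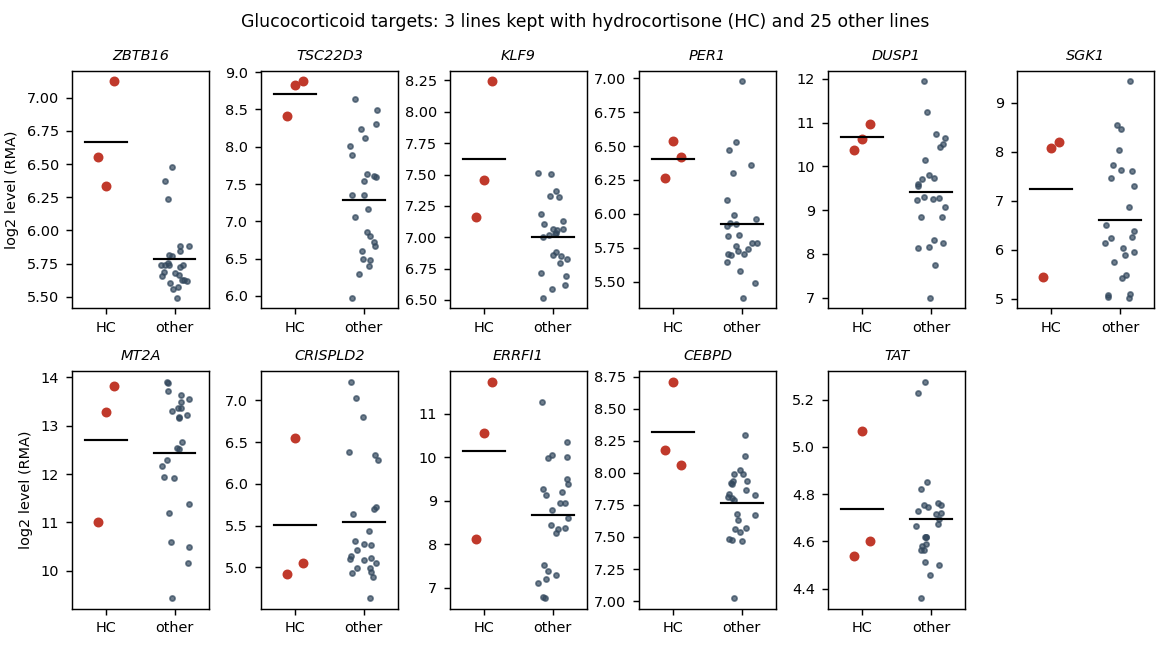
Log2 level (y axis, a scale of its own in each panel) of 11 glucocorticoid targets in the 3 lines kept with hydrocortisone (HC, left, red) and the other 25 lines (right), each point a line and each bar a group mean. TSC22D3 lies at 8.41 to 8.88 in the 3 lines and ZBTB16 at 6.33 to 7.12, and only ZBTB16 passed the test.

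ZBTB16 (PLZF), a transcription factor, had line means of 6.55 in OV17R, 6.33 in OV56 and 7.12 in OV7, against 5.49 to 6.48 with a median of 5.74 in the other lines. The difference was 0.89 ± 0.16 (SE, adjusted p = 0.0299 by limma). OV56 overlapped with the others and OV17R and OV7 did not. The value of 6.48 was that of OVCA420, where the array that stood apart read 7.32 and its duplicate 5.63, and the array of OV56 that stood apart read 6.65 while its duplicate read 6.02. This call was lost within DMEM/F12, without OV56, without OV7 and with a further quantile normalization. TSC22D3 had means of 8.41, 8.83 and 8.88 in OV17R, OV56 and OV7, against 5.98 to 8.64 with a median of 7.35 elsewhere. Its difference of 1.41 ± 0.43 did not pass the correction over all genes (adjusted p = 0.819 by limma). PER1 differed by 0.48 ± 0.21 (adjusted p = 0.999 by limma). In OV7, ERRFI1, a feedback inhibitor of EGFR, was called high at a mean of 11.74 against 8.73 in the other lines. DUSP1, a phosphatase of MAP kinases, was called high in SKOV3, which was not among the 3 lines, at 11.94.

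For the 6 receptors with the widest spans, the genes most alike over the 28 line means were listed by Pearson's r, as a description. NR3C1 was followed most closely by DYNLT3 (r = 0.85), a dynein light chain, DOCK5 (0.77) and MCUB (0.77), and these r were 0.84, 0.76 and 0.74 without CAOV3. PPARG was followed by NRP1 (0.77), MYO1E (0.73) and SGK1 (0.71), and these too held without OVCAR2 (0.75, 0.74 and 0.71). The likeness was weaker without the highest line for the other 4 receptors. LOC100420587, AFF1 and PRKCB had r of 0.84, 0.81 and 0.78 with NR3C2, and 0.52, 0.50 and 0.53 without FUOV1. LSAMP, TCF21 and EPYC had r of 0.75, 0.73 and 0.72 with RARB, and 0.48, 0.51 and 0.52 without TOV112D. Without the 3 arrays that stood apart, TCF21 had an r of 0.35 with RARB. NR5A2 was followed by CDHR2 (0.82), VAMP5 (0.81) and CLRN3 (0.80), with 0.65, 0.69 and 0.62 without OVCAR2. NR4A2 was followed by NDNF (0.78), SNORD114-2 (0.78) and SNORD113-4 (0.77), with 0.62, 0.70 and 0.63 without CAOV3.

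Most pairs of receptors were weakly related. Of 741 pairs of the 39 receptors, 24 had r above 0.5 and 7 below -0.5 over the 28 line means, and the median r was 0.08. Without the 3 arrays that stood apart there were 14 and 3. The highest pairs, RXRG with RORB (r = 0.89), RXRG with NR2E3 (0.87) and RORB with NR2E3 (0.79), shared COLO720E as their highest line, and without those 3 arrays and that line they were 0.29, 0.45 and 0.05.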

How the data were processed

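Total RNA of 28 ovarian cancer cell lines was hybridised to 56 arrays, 2 per line. The deposited log2 values are the authors' RMA output, and the submitters' processing notes name affy 1.42.3. Which arrays were normalized together is not given in the sources used here. Values ran from 1.35 to 14.89, and 0 columns belonged to no labelled sample. For arrays, their number limits the precision.

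Of 28869 probe sets, 19310 with 1 gene were used (19279 matched to RefSeq by gene ID) and 1752 with several were left out. ESR1 and RXRB had several probe sets. Lines were compared with limma 3.58.1 (R 4.3.3, trend and robust moderation, Benjamini-Hochberg over all genes, and over 28 lines as well for line contrasts). For the EMT score, mesenchymal and epithelial signature genes were compared by a signed Kolmogorov-Smirnov statistic, centred on their medians over lines, on each array, and averaged per line. Spearman's rho used 100000 two-sided permutations (numpy 2.4.6). Hydrocortisone and interaction tests used line means. Procedures were tested on simulated data.

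The receptors and gene lists were chosen with earlier results of these data known. Named were all listed receptors, the 2 genes with the widest span in each pathway list, TSC22D3, PER1, ZBTB16 and FKBP5 (not analysed here), and the 3 genes most alike for 6 receptors. Targets compared in single lines, and other genes named for such comparisons, were chosen after their values were seen. PGR, RARB and NR0B2 are also listed as targets and were left out of those target counts in single lines, PER1 and CYP3A4 stand in 2 lists each, and ARNTL is an older name of BMAL1. Promoters are from RefSeq (GRCh38.p14), which matched 34 of the 39 receptors.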

Additional observations from a re-analysis of the deposited data

Results flagged for a closer look

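Line means of each receptor were screened for single lines far from the others within DMEM (10 lines), RPMI (9) and DMEM/F12 (7) by Dixon's criterion at 95%. Of 117 receptor and medium groups, 25 (21.4%) had such a line, against 18.6% of 55131 groups over all genes, while chance marks about 1 in 20 groups.

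Among DMEM lines ESR1 stood apart in OVCA432 (7.64), ESRRG in OAW28 (5.88), NR2F6 in OAW28 (10.28), NR4A2 in CAOV3 (8.42) and NR6A1 in CH1 (8.84). OVCA420, with 1 array that stood apart, was far above the other lines for RXRG (4.95, with arrays at 5.70 and 4.20), NR1I3 (5.03, with 5.67 and 4.39), RORB (6.20, with 6.93 and 5.47) and NR5A1 (6.23, with 7.07 and 5.39). It was far below them for NR2C1 (5.71, with 4.37 and 7.05). RXRG and NR1I3 were not detected in OVCA420.

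Among RPMI lines these were ESR1 in PEO1 (8.03), NR3C2 in EFO21 (6.76), RXRG (6.38) and RORB (7.81) in COLO720E, NR2F1 in A2780 (9.20), and NR5A2 (8.26) and NR0B2 (7.33) in OVCAR2. HEYC2, again with 1 array that stood apart, was high for NR1I3 (5.03, with arrays at 5.70 and 4.36), NR1D1 (7.94, with 8.47 and 7.41) and NR5A1 (6.35, with 6.94 and 5.77), of which NR1I3 was not detected in HEYC2. Among DMEM/F12 lines they were NR3C2 (10.03) and NR0B2 (5.89) in FUOV1, HNF4G in JHOS3 (5.83), NR2F1 in OV7 (9.66) and PGR in OV56 (4.53, with arrays at 4.11 and 4.95), where it was not detected and the second array stood apart.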

How the results depend on the processing

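The 20 varying, 12 high and 1 low receptor calls were recomputed with a replicate block, which left them at 20, 12 and 1, and without the 3 arrays that stood apart, which gave 20, 13 and 1. The numbers 1 and 2 did not pair arrays across lines, since over 378 pairs of lines the correlation of deviations had a median of -0.0002. Single pairs of lines ran from -0.89 to 0.87, with 91 above 0.1, so some lines shared a deviation between their duplicates. Leaving out each array in turn gave 19 to 23 varying receptors, 11 to 13 calls high in a line and 1 to 3 low, with 2 low calls without FUOV1 replicate 2 and 3 without OVCA420 replicate 2. It gave 34 to 35 detected receptors, 14 in every line throughout and 4 to 5 in no line. Receptors detected in every line numbered 9 with the 99th percentile and 4 with the array median as the level, which also left 10 detected in no line, and 17 were detected in every line without the 3 arrays. Of the 13 single calls, ESR1 in PEO1 was lost with the mean over probe sets (1.37) and RXRG in COLO720E without COLO720E replicate 2 (1.96), and the others were kept in all 62 alternatives. Over 9 alternatives the rho of VDR ran from -0.843 to -0.628 (adjusted p 0.00681 to 0.0486, permutation). Glucocorticoid targets called with hydrocortisone numbered 0 within DMEM/F12, 0 with quantile normalization, 0 without OV56 and 0 without OV7, against 1 otherwise, and the cause was not tested. Detection is limited by the background, highest on the 3 arrays that stood apart.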

Other observations

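Some genes linked to nuclear receptors were high or low in lines where their receptor was not called, by the same rule as the receptors (adjusted p by limma). CD36, a fatty acid transporter and PPAR target, had a mean of 8.32 in TOV112D against 3.22 in the other lines (difference 5.09 ± 0.13, adjusted p = 1.14e-23). It was detected in 0 of the other lines, so this is a lower limit. TOV112D was the only line in its medium, and the part of the medium was not tested. CPT1A, the gate of mitochondrial fatty acid uptake, had 10.86 in JHOS4 against 8.67. The oestrogen target TFF1, a secreted mucosal peptide, had 9.58 in OVCAR2 against 6.34 (difference 3.24 ± 0.25, adjusted p = 8.04e-12), where ESR1 was not above background. The retinoic acid binding protein CRABP2 had 9.74 in OAW28 against 7.07.

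Of the 10 oestrogen and 11 glucocorticoid targets measured, 3 were low in OAW42. MT2A had a mean of 9.44 against 12.58 in the other lines and IGFBP4 had 6.67 against 9.27. STC2, a secreted glycoprotein, had 5.18 against 7.62. By the same rule, 29 of all genes were low in OAW42. Not all of these targets were low there. The glucocorticoid targets SGK1, at 8.61 and 8.32, and DUSP1, at 10.76 and 10.71, lay above their medians over lines of 6.32 and 9.57. Among coregulators, the acetyltransferase gene EP300 was low in CAOV3, at 5.22 against 7.36 (difference -2.15 ± 0.28, adjusted p = 4.01e-07). STC2 in OAW42 and EP300 in CAOV3 were not above background. These genes were chosen after their values were seen.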
